A study of Homo sapiens with 6 samples.

Results

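The smooth-muscle-type contractile genes measured here are 10 genes of the actin filament and its motor: ACTA2, TAGLN, CNN1, CNN2, CNN3, MYL9, TPM1, TPM2, TPM4 and CALD1. They were chosen by name, with earlier results of these data known, and every probe whose transcript accession belongs to one of them was kept as a separate measurement, which gave 15 probes of the 28174 that could be named, or 10 genes of 20503. On the A673/TR/LOX-PP arrays, probes of the caldesmon gene CALD1, the tropomyosin gene TPM2 and the regulatory light chain gene MYL9 fell by 1.33, 1.26 and 2.03 on the log2 scale (SE 0.21, 0.25 and 0.36, n = 3 arrays per group), relative to the median of all tested probes. The size of the MYL9 drop is poorly fixed, since its probe was above background on 1 of the 3 LOX-PP arrays, and it was -0.93 and not called with another background correction. That probe could be tested only because it was above background on the control arrays, the group where it was high. The second TPM2 probe had a change of -1.15 and was not called. All 3 calls were lost when any 1 control array was left out. Over alternative ways of processing or leaving out an array, the TPM2 call was lost in 10 of 16. The MYL9 call was lost in 8 of 15, and the CALD1 call in 6 of 16. No probe of the 10 genes rose past the threshold. The smooth muscle actin gene ACTA2 and 1 of the 2 TPM4 probes were higher on every LOX-PP array than on every control array, without passing it.

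In smooth muscle and in many motile cells, actin filaments are lined by tropomyosins, which are coiled-coil dimers that set how far myosin and other proteins can reach the filament. Caldesmon, the calponins and transgelin bind the same filaments and restrain or stabilise them, while phosphorylation of the regulatory light chain turns on myosin II. Many of these genes carry a CArG box, the binding motif of serum response factor (SRF), and are known as targets of SRF with myocardin or the myocardin-related cofactors. A tumour line that is not muscle can express them as parts of its stress fibres.

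RNA came from A673, an Ewing sarcoma cell line, and was hybridised in 1 colour to 6 Agilent arrays. Both groups carry the tetracycline repressor (TR). The 3 A673/TR/empty samples hold the inducible vector with no insert, and the 3 A673/TR/LOX-PP samples hold the cDNA of the propeptide of lysyl oxidase (LOX-PP), so the comparison asks how expression differs where the propeptide is to be induced. The labels repeat doxycycline at 1 µM for 72 h for all 6 samples, whereas the study states 1 µg/ml in its other experiments and names the treatment clearly only for the LOX-PP cells, so the treatment of the controls is not settled. Stable clones were selected with zeocin, and the study also used polyclonal populations in 1 growth experiment. Which clone or population was on the arrays is not stated. The effect of the cDNA and a difference between the cell populations cannot be told apart. The study describes the RNA as coming from 3 separate experiments, and which numbers share an experiment is not stated.

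Levels are log2 signals minus the 75th percentile of the same array. Changes are LOX-PP minus empty, relative to the median change of all 32647 tested probes (0.13 on the same log2 scale, and -0.03 after quantile normalization). A probe is called at an adjusted p under 0.05 (limma with Benjamini-Hochberg adjustment over all tested probes). Between 56.9% and 74.8% of gene spots were well above background per array, and no gene spot was saturated. The 75th percentile of the log2 signal was 11.48 and 11.70 on LOX-PP replicates 1 and 3, and 12.60 to 12.90 on the other arrays. LOX-PP replicate 1 was on slide 2 and the other 5 arrays on slide 1, so a fit with the slide as a block rests on slide 1 alone. The single LOX probe read -0.09, 0.36 and 0.10 in the empty group against -0.12, -0.69 and -1.29 in the LOX-PP group, with a change of -0.95 (adjusted p = 0.218), so it was not higher where the labels place the insert. Whether this probe lies inside the part of the transcript that the propeptide cDNA covers is not stated in the files, so it may check nothing, and the directions below rest on the labels.

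All 15 probes passed the filter on dim probes, 14 of them above background on all 6 arrays. The remaining probe, of MYL9, passed only through the empty arrays, where it was high, so its place among the lower calls depends on that group. Of the 15, 3 were called lower, beside 2.35% of all tested probes, and 0 were called higher, beside 3.3%. Since the genes were not chosen blind to these data, the shares are a description. At an unadjusted p under 0.05, 7 were lower and 2 higher, beside 6949 of all 32647 tested probes in both directions together. The methods' t-test called 1 lower and 0 higher after adjustment, beside 566 of all tested probes. The 2 groups did not overlap for 8 probes of 5 genes that were lower (CALD1, CNN3, MYL9, TPM1 and TPM2), beside 13.3% of all tested probes, and for 2 probes that were higher (ACTA2 and TPM4), beside 16.2%. The other 5 probes overlapped. The median change over the 15 probes was -1.04, with 11 below and 4 above the median of all tested probes, whose middle 50% lay between -0.37 and 0.39. The change varied with signal. Signal deciles 8 and 9 of all tested probes had medians of -0.25 and -0.25, and the dimmest deciles, 1 and 2, had 0.22 and 0.27. Relative to probes of like signal, chosen after seeing the data, the median over the 15 probes was -0.79. In these bulk samples, fewer cells with a transcript and less of it per cell cannot be told apart.

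**Figure D1:**
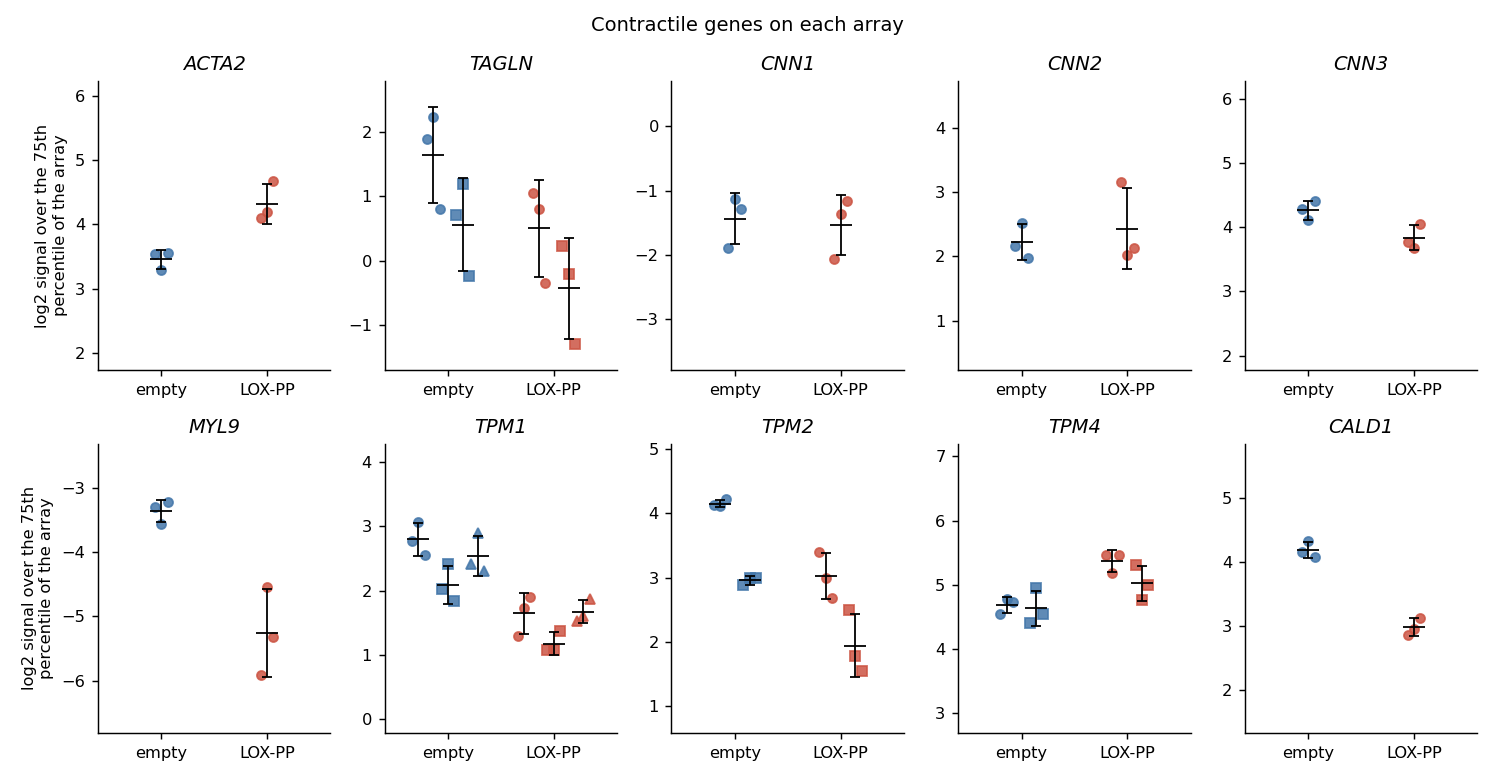
Level of each of the 15 probes on each array, as log2 signal over the 75th percentile of that array, with the 3 A673/TR/empty and the 3 A673/TR/LOX-PP arrays in separate colours, a symbol for each probe of a gene, and bars for the mean ± SD. The groups are apart for MYL9, CALD1, TPM1, TPM2 and CNN3 with LOX-PP lower, and for ACTA2 and 1 TPM4 probe with LOX-PP higher.

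ACTA2 encodes the actin isoform of smooth muscle and of myofibroblasts. Its probe (A_23_P150053, chromosome 10) read 3.54, 3.29 and 3.55 on the empty arrays against 4.10, 4.19 and 4.67 on the LOX-PP arrays. Every LOX-PP array lay above every empty array, with a gap of 0.55. The change was 0.73 (SE 0.24, 95% confidence interval 0.16 to 1.31) and did not pass the threshold (adjusted p = 0.0953). Of all tested probes, 88.2% had a lower change. The coding sequences of the actin paralogs are very similar, and hybridisation of this probe to another actin transcript was not tested.

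Of the 7 probes of the tropomyosin genes, 1 was called, for TPM2 and lower. Over all tested probes, 2.35% were called lower and 3.3% higher. TPM1 and TPM2 encode the long muscle-type and several fibroblast tropomyosins through alternative exons, and TPM4 encodes mainly a short nonmuscle form. The first TPM2 probe (A_23_P216501, chromosome 9) read 4.13, 4.11 and 4.22 on the empty arrays against 3.40, 2.99 and 2.68 on the LOX-PP arrays. All 3 LOX-PP values lay below all 3 empty values, which differed by little among themselves. The change was -1.26 (95% confidence interval -1.84 to -0.67), a signal 2.39-fold lower, and the probe was called (adjusted p = 0.0476), close to the threshold. With the slide as a block it was -1.48 (adjusted p = 0.0250). The call was lost without empty replicate 1, 2 or 3 (adjusted p = 0.210, 0.185 and 0.122) and without LOX-PP replicate 2 or 3 (0.108 and 0.0997). It was also lost under quantile normalization (-1.02, adjusted p = 0.0539) and under scaling to the median of detected probes (0.0505), with no filter on dim probes (0.162) and by the methods' t-test (0.0962).

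The second TPM2 probe (A_33_P3270599) read 2.88, 3.00 and 3.00 on the empty arrays against 2.50, 1.78 and 1.55 on the LOX-PP arrays. The groups were again apart, with LOX-PP replicate 1 nearest to the controls on both TPM2 probes. The change was -1.15 (adjusted p = 0.0990), and within slide 1, without LOX-PP replicate 1, it was -1.46 and passed (adjusted p = 0.0241).

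TPM1 had 3 probes on chromosome 15. The first (A_23_P206018) read 2.77, 3.07 and 2.56 on the empty arrays and 1.29, 1.73 and 1.91 in the LOX-PP group, a change of -1.28 (SE 0.26, 95% confidence interval -1.90 to -0.67, adjusted p = 0.0522). The second (A_24_P44462) read 2.02, 2.42 and 1.84 against 1.07, 1.08 and 1.38, a change of -1.04 (adjusted p = 0.0821). The third (A_33_P3335966) read 2.42, 2.89 and 2.31 against 1.53, 1.61 and 1.87, a change of -1.0 (adjusted p = 0.0966). On all 3 probes the LOX-PP arrays lay below the empty arrays, and none was called. The first passed under 4 of 16 alternatives, among them quantile normalization (-1.01, adjusted p = 0.0497) and the stricter filter on dim probes (-1.23, adjusted p = 0.0322).

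TPM4 had 2 probes on chromosome 19. The first (A_23_P141974) read 4.54, 4.78 and 4.74 on the empty arrays and 5.47, 5.18 and 5.47 in the LOX-PP group, a change of 0.56 (95% confidence interval 0.06 to 1.05, adjusted p = 0.120). The second (A_24_P82880) read 4.41, 4.95 and 4.54 against 5.30, 4.77 and 4.997, a change of 0.26 (95% confidence interval -0.34 to 0.86, adjusted p = 0.425). The groups were apart on the first probe, with LOX-PP higher, and overlapped on the second. Neither was called, and their intervals reach down to almost no change or below it.

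Probes of 1 gene can read different transcripts, so their changes were compared with each other. The difference between probes was not called for TPM1, TPM2, TPM4 or TAGLN (adjusted p = 0.947, 0.979, 0.762 and 0.996, limma diffSplice), beside 1.42% of the 4308 genes with 2 or more tested probes. The files do not say which isoforms each probe reads.

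Since scaling moves every probe of an array together, some members with changes of opposite sign were also set against each other on the same array. These ratios were chosen after the values had been seen, so their direction and the separation of the groups follow from the choice, and they are given as a description with no test. The log2 ratio of TPM4 to TPM1, with the mean of the empty arrays at 0, was -0.12, -0.18 and 0.29 on the empty arrays against 2.29, 1.56 and 1.67 on the LOX-PP arrays. The LOX-PP arrays were 3.58-fold higher on average. The ratio of TPM4 to TPM2 was 3.52-fold higher, with LOX-PP values of 1.54, 1.66 and 2.25. The ratio of ACTA2 to CALD1 was 4.17-fold higher, with LOX-PP values of 1.96, 1.96 and 2.26. After quantile normalization the log2 differences were 1.65, 1.65 and 2.04. The ratios do not say which of the genes in a ratio moved.

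**Figure D2:**
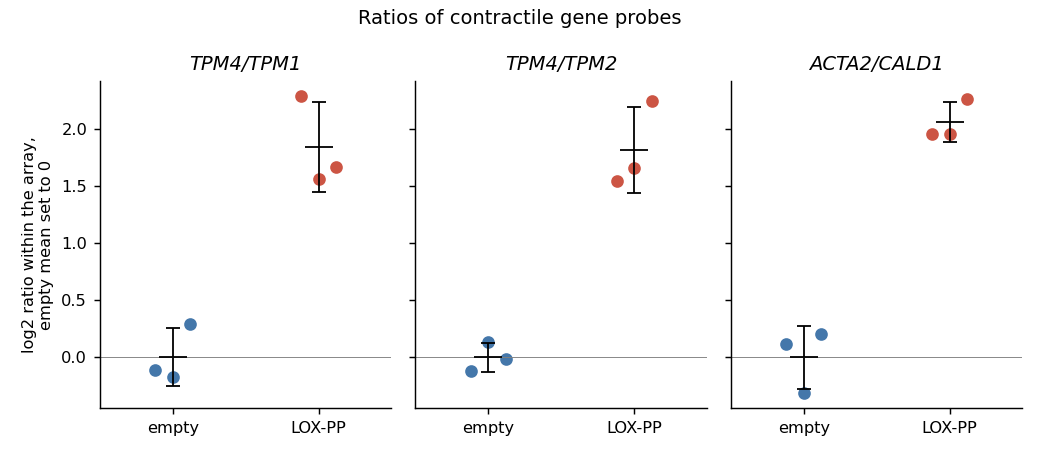
Log2 ratio of TPM4 to TPM1, TPM4 to TPM2 and ACTA2 to CALD1 on each array, with the mean of the empty arrays set to 0; points are arrays and bars the mean ± SD. All LOX-PP arrays lie between 1.54 and 2.29, above every empty array.

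The CArG box is the motif this gene group is best known for. The promoters of TPM4 and CNN2 are shown because only these members had a window with the box. TPM1 and TPM2 stand beside them as tropomyosin genes without it in the windows read. Of each gene the window with the box was taken, otherwise the one furthest upstream. The other members with a window, ACTA2 among them, held no run of the exact pattern given below. A box with a G or C among its inner letters was not searched for, so this says nothing about SRF at these genes. CNN2 had no settled direction of change, and a link between box and change was not tested. Each line holds the 200 bases before an annotated start site in RefSeq, 5′ to 3′ on the strand of the gene, with a CArG box in capitals (a run of 10 letters that opens with CC, closes with GG and holds only A or T between them, a pattern that a match fits on both strands).
TPM4, chr19:16067338-16067537, build GRCh38.p14, plus strand: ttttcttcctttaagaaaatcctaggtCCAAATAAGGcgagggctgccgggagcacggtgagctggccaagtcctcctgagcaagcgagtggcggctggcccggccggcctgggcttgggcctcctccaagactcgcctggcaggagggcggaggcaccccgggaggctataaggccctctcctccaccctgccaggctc
CNN2, chr19:1026408-1026607, build GRCh38.p14, plus strand: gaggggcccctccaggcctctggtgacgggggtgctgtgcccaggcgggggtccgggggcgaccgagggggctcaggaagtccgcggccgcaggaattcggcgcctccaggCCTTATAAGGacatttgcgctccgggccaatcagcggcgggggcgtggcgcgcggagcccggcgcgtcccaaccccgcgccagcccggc
TPM1, chr15:63048289-63048488, build GRCh38.p14, plus strand: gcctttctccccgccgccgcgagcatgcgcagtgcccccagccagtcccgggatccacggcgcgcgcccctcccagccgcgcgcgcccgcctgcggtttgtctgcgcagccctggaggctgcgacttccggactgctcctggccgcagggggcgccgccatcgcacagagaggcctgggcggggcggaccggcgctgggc
TPM2, chr9:35690057-35690256, build GRCh38.p14, minus strand: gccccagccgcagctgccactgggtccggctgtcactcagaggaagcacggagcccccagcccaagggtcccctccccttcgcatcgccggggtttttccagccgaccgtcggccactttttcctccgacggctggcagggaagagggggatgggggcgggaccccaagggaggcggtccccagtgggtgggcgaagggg

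The box of TPM4 lies 173 to 164 bases before the start site, and that of CNN2 89 to 80 bases before it. In windows from 250 bases before to 50 bases after a start site, 2 of the 16 windows of 8 member genes held the box (12.5%), against 454 of 35116 windows of all genes (1.29%) and 18 of 177 windows of the related gene lists below (10.2%). The striated muscle, Ewing sarcoma, and fibroblast and myofibroblast markers were left out of those lists here. TPM4 has 3 annotated windows, TPM2 2 and TPM1 and CNN2 1 each here, and the probes were not assigned to a start site. The windows of TPM1 and TPM2 shown hold no run of these letters, which says nothing about SRF at these genes. TAGLN and MYL9 were not among the windows.

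CALD1 encodes caldesmon, which binds actin and tropomyosin and inhibits the myosin ATPase. Its probe (A_24_P921366, chromosome 7) read 4.15, 4.33 and 4.07 on the empty arrays against 2.87, 2.95 and 3.13 on the LOX-PP arrays. The groups were apart by 0.94, more than the spread within either group. The change was -1.33 (95% confidence interval -1.81 to -0.84), a signal 2.51-fold lower, and was called (adjusted p = 0.0230). With the slide as a block it was -1.30 (adjusted p = 0.0341), and under quantile normalization -1.09 (adjusted p = 0.0181). The methods' t-test also called it (adjusted p = 0.0368). The call was lost without empty replicate 1, 2 or 3 (adjusted p = 0.141, 0.129 and 0.0561) and without LOX-PP replicate 2 (0.0685), with changes between -1.45 and -1.19 in these fits. It was also lost with no filter on dim probes (-1.50, adjusted p = 0.102).

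TAGLN encodes transgelin, or SM22α, a small actin-bundling protein and a classical early smooth muscle marker. The first of its probes on chromosome 11 (A_23_P87011) read 1.90, 2.23 and 0.81 on the empty arrays against 1.05, 0.81 and -0.36 on the LOX-PP arrays. The second (A_23_P87013) read 0.72, 1.19 and -0.23 against 0.22, -0.21 and -1.30. The groups overlapped on both probes, and in each group replicate 3 was the lowest array. The changes were -1.27 (SE 0.50, 95% confidence interval -2.46 to -0.08, adjusted p = 0.250) and -1.11 (95% confidence interval -2.31 to 0.09, adjusted p = 0.313), about as large as those of TPM1 and TPM2 but with wider intervals. The 2 probes followed each other closely over the 6 arrays (Pearson r = 0.993, given as a description), so the same arrays were high and low on both. The named genes that correlated most with the first probe over the 6 arrays were FRMD4A (r = 0.998), PCGF2 (r = 0.997) and MARVELD3 (r = 0.996), and 137 genes had an r above 0.95. An r takes no account of size, and PCGF2 ran only from -2.29 to -2.05 over the arrays.

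The calponins, which bind actin and restrain filament sliding, gave no call. CNN3, the acidic calponin found widely outside muscle (A_23_P138168, chromosome 1), read 4.27, 4.11 and 4.40 on the empty arrays against 3.77, 3.67 and 4.05 on the LOX-PP arrays. The groups were apart by only 0.06, with a change of -0.56 (95% confidence interval -1.07 to -0.05, adjusted p = 0.303). CNN1, the calponin of differentiated smooth muscle (A_23_P125233, chromosome 19), read -1.89, -1.13 and -1.28 against -2.06, -1.37 and -1.16, with a change of -0.22 (95% confidence interval -1.005 to 0.56, adjusted p = 0.899). CNN2 (A_24_P142743, chromosome 19), the calponin of many nonmuscle cells, read 2.16, 2.52 and 1.97 against 3.15, 2.01 and 2.13, with a change of 0.08 (95% confidence interval -0.76 to 0.92, adjusted p = 0.777). For CNN1 and CNN2 the groups overlapped, and the direction turned under some alternatives. LOX-PP replicate 1, the array on the other slide, was the high value of CNN2, and without it the change was -0.31.

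MYL9 encodes the regulatory light chain of smooth muscle and nonmuscle myosin II, whose phosphorylation switches on contraction. Its probe (A_23_P210425, chromosome 20) read -3.29, -3.56 and -3.23 on the empty arrays against -5.91, -4.54 and -5.33 on the LOX-PP arrays. It was well above background on all 3 empty arrays and on 1 of the 3 LOX-PP arrays, so the size of the drop is poorly fixed. The probe passed the filter on dim probes only through the empty arrays, the group where it was high. The groups were apart by 0.98. The change was -2.03 (95% confidence interval -2.89 to -1.16), a signal 4.07-fold lower, and was called (adjusted p = 0.0320). With the slide as a block it was -1.74 (adjusted p = 0.0394), and over a common floor -1.49 (adjusted p = 0.0130). With another background correction (normexp) it was -0.93 and not called (adjusted p = 0.203). The call was also lost without empty replicate 1, 2 or 3 (adjusted p = 0.153, 0.121 and 0.0849), without LOX-PP replicate 3 (0.0872), with no filter on dim probes (0.112) and by the methods' t-test (0.118).

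**Figure D3:**
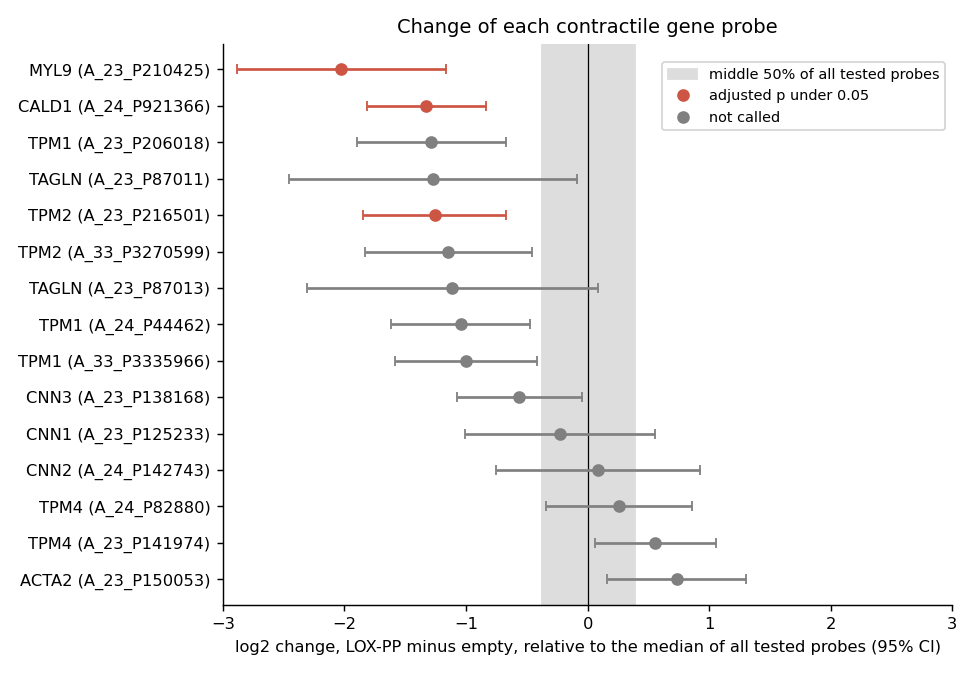
Log2 change of each of the 15 probes, LOX-PP minus empty, relative to the median of all tested probes, with 95% confidence intervals from limma and the middle 50% of all tested probes in grey. Red marks the 3 called probes, of MYL9, CALD1 and TPM2, and the 2 TAGLN probes have the widest intervals of the 15.

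Among all tested probes, 1.11% had a change below that of MYL9, 3.03% below that of CALD1, 3.31% below that of the first TPM1 probe and 3.49% below that of the first TPM2 probe. For the first TPM4 probe 82.4% lay below. These shares take no account of signal, with which the change varied. Over the 16 alternatives (15 for MYL9), the change kept its sign for every probe except those of CNN1 and CNN2. ACTA2 ranged from 0.56 to 0.95 and the first TPM4 probe from 0.38 to 0.73 without a call in any of them. The alternatives are not independent. The authors' values, the scaling to the median, the replicate block and the methods' t-test return the reported changes. The slide as a block and leaving out LOX-PP replicate 1 are the same fit.

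**Figure D4:**
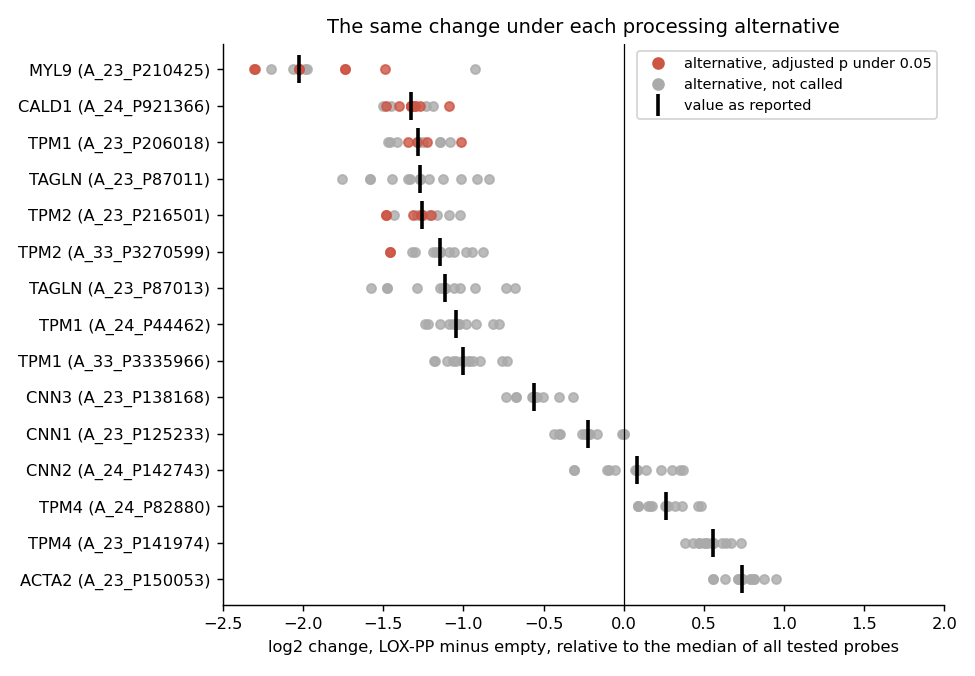
Log2 change of each probe under each alternative way of processing or leaving out an array, relative to the median of all probes tested there; red points are called and the black line is the value as reported. CNN1 and CNN2 lie on both sides of 0, MYL9 ranges from -2.31 to -0.93 and CALD1 from -1.50 to -1.09.

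Around these genes, lists of related genes were counted on the same scale. For all lists below, the share over all tested probes was 3.3% called higher and 2.35% called lower. The methods' t-test called 566 of all 32647 tested probes. Of the paralogs of the 10 genes, 0 of 13 probes of 7 genes were called, with 6 genes above and 1 below the median of all tested probes (list median 0.45, and 0.16 after quantile normalization, where 1 probe was called lower). At an unadjusted p under 0.05, limma had 1 probe higher and 1 lower, beside 6949 of all 32647 tested probes in both directions together. The methods' t-test called 0 after adjustment. The 2 with the largest t were TPM3, the remaining tropomyosin gene, and ACTB, the cytoplasmic β-actin. ACTB had 0.92 on 1 probe (adjusted p = 0.146) and 0.69 on the other, and TPM3 had -1.40 on 1 of its probes (adjusted p = 0.0525). The other TPM3 probes had changes between 0.11 and 0.85. Of 33 probes of 19 genes for myosin II and its control, 0 were called (median -0.14), and 0 by the methods' t-test. At an unadjusted p under 0.05, 4 were higher and 2 lower, again beside 6949 of all 32647 tested probes. The largest t there belonged to PPP1R12B, a myosin phosphatase subunit, and PPP1CB, the phosphatase catalytic subunit. PPP1R12B had 1.21 on 1 probe (adjusted p = 0.0558), above background on 2 of 3 empty arrays. Its other probes had 0.73, 0.64, 0.40 and -0.18, the last on its brightest probe. PPP1CB had -1.32 on 1 probe (adjusted p = 0.0626) and -0.39 on the other.

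Among 16 genes for SRF, its cofactors and partners (21 probes, median -0.20), 1 gene was called higher and 1 lower. At an unadjusted p under 0.05, limma had 6 probes higher and 3 lower, beside 6949 of all 32647 tested probes in both directions together. The methods' t-test called 1 probe of this list higher and 2 lower after adjustment. The zinc finger factor GATA6 rose by 3.14 (adjusted p = 0.00379), above background on 2 of 3 empty arrays. CRIP1, a LIM domain protein, fell by 5.43 on 1 probe (adjusted p = 0.000145) and dropped by 6.32 on the other (adjusted p = 0.000153). The list is named for SRF, whose own probe had a change of -0.85 with overlapping groups (adjusted p = 0.211). Of 18 genes that crosslink or anchor actin filaments (28 probes, median -0.05), the LIM protein PDLIM5 rose by 1.18 on 1 probe (adjusted p = 0.0248), with -0.26 and 0.62 on its other 2. PALLD, which encodes the stress fibre protein palladin, fell by 1.53 on 1 probe (adjusted p = 0.0182), and its other probe had -1.07 (adjusted p = 0.0565).

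Of 25 genes of filament assembly and turnover (40 probes, median -0.20), 1 was called. At an unadjusted p under 0.05, limma had 1 probe higher and 7 lower, beside 6949 of all 32647 tested probes in both directions together. The methods' t-test called 0 probes of this list higher and 2 lower after adjustment. CAPG, a capping protein of the gelsolin family, fell by 2.22 on 1 probe (adjusted p = 0.00334) and dropped by 2.20 on the other (adjusted p = 0.00631).

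Markers of cell types were read beside the members. Of 15 smooth muscle differentiation markers, 7 were above background on all 6 arrays and PLN on none. The only call among the 11 tested was AOC3, an amine oxidase of smooth muscle and fat, which rose by 2.14 (adjusted p = 0.0243), above background on 2 of 3 empty arrays. MYH11, the defining myosin of smooth muscle, was not above background on enough arrays to be tested. The mean level of this list was -2.55 to -2.33 on the empty arrays and -2.39 to -1.66 on the LOX-PP arrays. Of 24 striated muscle markers, 6 were above background on all arrays, and MYF5, MYF6 and MYL1 on none. TNNT1, the slow skeletal troponin T, rose by 2.16 (adjusted p = 0.0135). The mean level of that list was -3.47 to -3.36 on the empty arrays and -3.45 to -2.69 on the LOX-PP arrays.

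All 12 Ewing sarcoma markers were above background on all 6 arrays, with a mean level of 2.92 to 3.04 on the empty and 2.88 to 3.29 on the LOX-PP arrays. Of their 15 probes 1 was called: PAX7, a paired box factor of this tumour, fell by 2.05 on 1 probe (adjusted p = 0.0121), and its other probe had -0.34. Of 12 fibroblast and myofibroblast markers, 8 were above background on all arrays. COL1A2, POSTN and LUM, which encode matrix proteins, fell by 3.04, 4.75 and 2.42 (adjusted p = 0.00123, 0.00314 and 0.0193), and FAP, a surface protease, rose by 3.52 (adjusted p = 0.00115). FAP and LUM were each above background on 2 of the 3 empty arrays. On the 3 LOX-PP arrays, POSTN was above background on 2 and LUM on 1, which leaves the sizes of these changes uncertain. By the methods' t-test 1 probe of this list was called higher and 1 lower, and 0 of the crosslinking, smooth muscle, striated muscle and Ewing sarcoma lists, so PDLIM5, PALLD, AOC3, TNNT1 and PAX7 were not called by it. The mean level of this list ran from 1.21 to 1.66 on the empty arrays and from 0.66 to 1.04 on the LOX-PP arrays, and that of the 10 contractile genes from 2.18 to 2.38 and from 1.71 to 1.76. The part of this list in the changes of the contractile genes was not tested.

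**Figure D5:**
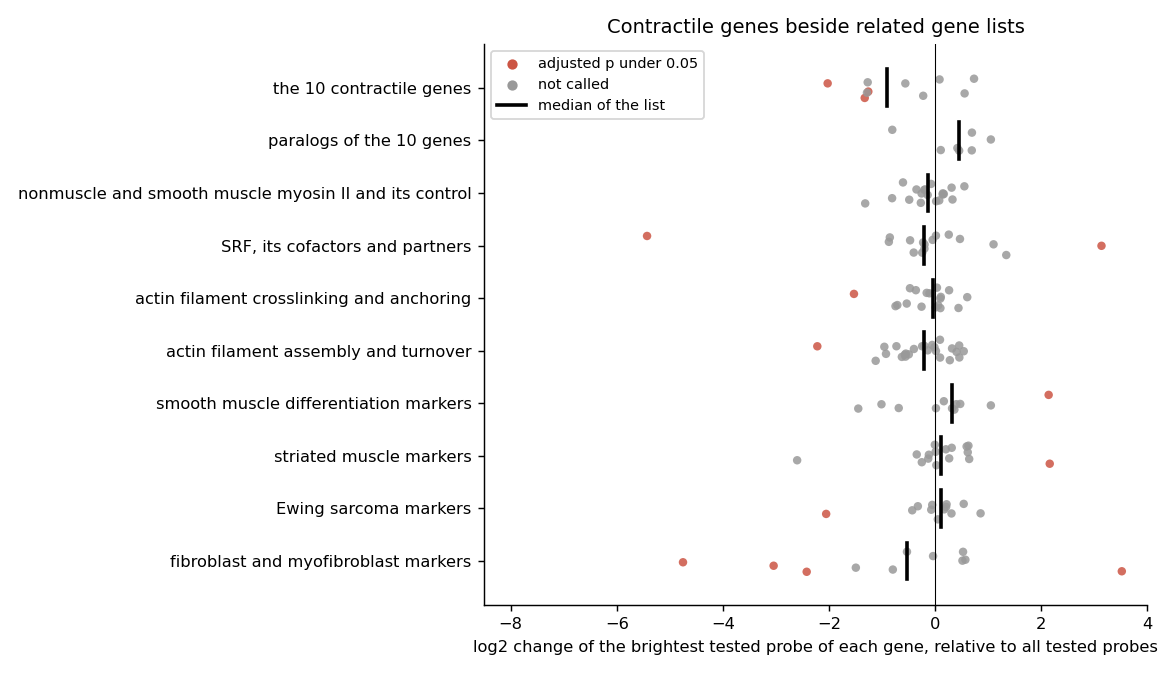
Log2 change of the brightest tested probe of each gene in the 10 contractile genes and 9 related lists, relative to the median of all tested probes; red points are called and black lines are list medians. The contractile genes have a median of -0.91 over genes, the lowest of the 10 rows, and each row holds points on both sides of 0.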

How the data were processed

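RNA of 3 A673/TR/empty and 3 A673/TR/LOX-PP samples was measured on 1-colour Agilent arrays. The authors deposited the spot intensity from Feature Extraction (version 10.7, per the labels), already corrected for background, and a table of processed log2 values, centred per probe. Control and outlier spots were left out, spots of a probe were averaged, and values were set against each array's 75th percentile. These values matched the deposited log2 table, once centred, within 0.0059. The 32647 of 50599 probes that exceeded background by the scanner's flag on 3 or more arrays were fitted with limma (version 3.58.1, R 4.3.3), with no covariates and Benjamini-Hochberg adjustment. The steps were tested on simulated data.

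Accessions of 28174 probes (55.7%) were named through a RefSeq table (GRCh38.p14), used for names and chromosomes. The build of the array design is not given in the sources used here. No array was saturated, and 3 arrays per group limit the precision.

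The members and lists were chosen with earlier results of these data known. All members are given. Of each list, called genes are named (up to 5), otherwise the 2 with the largest t. The genes most like TAGLN are the 3 with the highest r. Alternatives were 3 scalings or normalizations, normexp (offset 50, on the median signal, since the planned mean signal was not used here), a common floor, 2 filters, the slide and the replicate number as blocks, the methods' t-test and leaving out each array. Signal deciles and ratios within arrays were chosen after seeing the data. The comparison of protein sequences was not run.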

Additional observations from a re-analysis of the deposited data

How the results depend on the processing

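Of the 16 alternatives, 8 moved the count of contractile probes called lower from 3 by more than 1.5 times. It was 0 with no filter on dim probes, 0 with the replicate block and 1 with the methods' t-test, and it ranged from 0 to 4 when 1 array was left out. It was 0 without empty replicate 1, 2 or 3, 1 without LOX-PP replicate 2 (MYL9) or replicate 3 (CALD1), and 4 without LOX-PP replicate 1. The count called higher was 0 under every alternative. Without a filter the threshold was taken over 50599 probes with 516 calls, against 1844 as reported. The deviations of same-numbered samples correlated for 2 of 3 pairs (r = 0.26, -0.38 and 0.22), and no source says that a number marks a shared experiment. The replicate block gave 850 calls over all probes and none of CALD1, MYL9 or the TPM2 probe (adjusted p = 0.0840, 0.0813 and 0.117). In the related lists, 8 probes were called higher after quantile normalization against 5 as reported. The cause of these shifts was not tested.

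The change reversed for CNN2 with normexp (-0.052), no filter (-0.092), the slide as a block (-0.31) and when an array was left out (from -0.31 to 0.37), and for CNN1 with the slide as a block (0.0033) and when an array was left out (from -0.44 to 0.0033). No other probe reversed. Relative to probes of like signal, an alternative chosen after seeing the data, the median over the contractile probes was -0.79. MYL9 was not tested where all 6 arrays had to be above background.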
